A study of Mus musculus with 8 samples.

Results

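Haemoglobin genes and Alas2, the gene for the red-cell form of 5-aminolevulinate synthase, were followed in kidney cortex of male mice of the strains SAMR1 and SAMP1. The members were the 6 genes Hba-a1, Hba-a2, Hbb-b1, Hbb-b2, Hbb-bt and Alas2. They were chosen because the levels of most of them differed by over 6 log2 units between arrays, so their levels are given as a description with no test. All 6 were found by gene name among 36610 gene names on the array, through 7 probes, and all 6 were among the 22646 genes that passed the filter on dim probes. SAMP1 mice age early and are called senescence-prone, and SAMR1 is the related strain that does not, called senescence-resistant. Each strain was sampled at 10 and at 50 weeks of age, which gave 4 groups of 2 mice, with 1 one-colour Agilent array for each of the 8 mice. The labels name no allele, agent or diet in any group, so all 4 groups were untreated as far as the labels say. Each RNA was taken from 10 mg of cortex, and 50 ng went into the Cy3 labelling. The number after the strain in a label is read as the mouse, and no source used here says that mice were pooled. The strains are separate inbred lines, so a strain difference takes in every locus at which they differ. Whether the kidneys were flushed of blood is not given in the sources used here.

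Adult haemoglobin is built of 2 alpha and 2 beta chains, each holding a haem group. The alpha chain is encoded by the neighbouring genes Hba-a1 and Hba-a2 and the beta chain by a cluster whose adult genes are called Hbb-bs and Hbb-bt in mice of the single haplotype and Hbb-b1 and Hbb-b2 in mice of the diffuse haplotype. Alas2 makes the first and rate-limiting product of haem synthesis in red-cell precursors, while its relative Alas1 serves other tissues. Reticulocytes, the youngest red cells in blood, still carry globin messenger RNA, and the adult kidney is not a site of red-cell production in mice. In kidney these genes are therefore usually read as a sign of blood held in the tissue. In a bulk sample, fewer cells of a type and less RNA per cell cannot be told apart.

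The probe sequences are shown because they decide which globin genes the array can tell apart. Coordinates are on mm9, as the files give them. The brighter Hba-a1 probe (A_51_P169730, chr11:32184427-32184486, plus strand, bases 499 to 558 of the transcript) and the Hba-a2 probe (A_55_P1962299, chr11:32197245-32197304, plus strand, bases 497 to 556) are the same sequence shifted by 1 base. They share a run of 59 of 60 bases, and both are listed in the file against both alpha transcripts. Their first 30 bases are printed here, with the shared run in capitals.
Hba-a1, 3′ probe: cTTCTTCTCTCCCTTGCACCTGTACCTCTT
Hba-a2 probe: TTCTTCTCTCCCTTGCACCTGTACCTCTTG
The array therefore gave 1 alpha signal under both names. A second Hba-a1 probe (A_55_P1962303, chr11:32183955-32184014, plus strand, bases 161 to 220) is also listed against both transcripts.
Hba-a1, second probe: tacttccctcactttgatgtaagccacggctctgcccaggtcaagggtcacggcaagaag
The beta probes differ more. The Hbb-bt probe (A_55_P1973809, chr7:110961105-110961164, minus strand, bases 503 to 562) is listed against 1 transcript. The Hbb-b1 probe (A_55_P2108151, chr7:110976379-110976438, minus strand, bases 5 to 64) lies at the start of the transcript, and its first 46 bases match the start region of Hbb-bs in RefSeq (GRCm38.p6) without a mismatch. The same stretch of Hbb-bt differs at 7 of 45 bases. The Hbb-b2 probe (A_55_P2038540, bases 215 to 274) has no position on mm9 in the file and is listed against the transcripts of Hbb-b2 and Hbb-b1. The first 30 bases of the Hbb-bt and Hbb-b1 probes, the whole Hbb-b2 probe and the whole Alas2 probe (A_51_P327451, chrX:147004993-147005052, plus strand, bases 1806 to 1865) follow.
Hbb-bt probe: ttttctgctattgtctatgcacaaaggtta
Hbb-b1 probe: tttgcttctgacatagttgtgttgactcac
Hbb-b2 probe: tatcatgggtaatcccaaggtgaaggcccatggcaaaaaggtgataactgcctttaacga
Alas2 probe: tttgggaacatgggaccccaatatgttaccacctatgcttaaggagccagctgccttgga
Which beta haplotype SAMR1 and SAMP1 carry was not analysed here, so the beta names are those of the probes. Alas2 is no globin gene, and its probe is a separate sequence.

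The promoters are shown as a description of sequence, and nothing about the levels on the arrays is read from them. In the 250 bases before the start of the gene (RefSeq, GRCm38.p6), 4 kinds of short motif were searched. They were the GATA words, namely AGATAA with its variant AGATAG and TGATAA with its variant TGATAG, then CACCC and CCAAT, all of these on both strands, and an ATA box on the gene's own strand, spelled TATAAA or in some genes TATAAG. Capitals mark the matches, and a match on the minus strand shows as the reverse complement. The windows are chr11:32283422-32283671 (plus strand) for Hba-a1, chr7:103813924-103814173 (minus strand) for Hbb-bt and chrX:150547167-150547416 (plus strand) for Alas2.
Hba-a1 promoter: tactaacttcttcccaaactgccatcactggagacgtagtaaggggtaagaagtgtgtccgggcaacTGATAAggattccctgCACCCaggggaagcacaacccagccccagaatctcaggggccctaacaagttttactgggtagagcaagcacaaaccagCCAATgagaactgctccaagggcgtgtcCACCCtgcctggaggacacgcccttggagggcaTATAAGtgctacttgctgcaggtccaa
Hbb-bt promoter: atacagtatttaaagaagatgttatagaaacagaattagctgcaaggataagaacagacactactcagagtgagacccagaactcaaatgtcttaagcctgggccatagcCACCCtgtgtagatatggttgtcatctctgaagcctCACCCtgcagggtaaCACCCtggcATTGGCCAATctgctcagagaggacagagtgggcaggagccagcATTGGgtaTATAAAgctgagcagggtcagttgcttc
Alas2 promoter: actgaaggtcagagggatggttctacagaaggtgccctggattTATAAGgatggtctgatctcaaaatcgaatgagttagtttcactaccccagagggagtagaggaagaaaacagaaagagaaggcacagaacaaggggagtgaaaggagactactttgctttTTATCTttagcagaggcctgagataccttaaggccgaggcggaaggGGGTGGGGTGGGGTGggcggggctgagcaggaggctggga
The Hba-a1 window held 1 GATA word 183 bases before the start, 2 CACCC words at 167 and 60 bases, 1 CCAAT at 88 bases and an ATA box 27 bases before the start. The Hba-a2 window shares a run of 247 of its 250 bases and holds the same set. The Hbb-bt window held 3 CACCC words, at 140, 104 and 89 bases, 3 CCAAT words and an ATA box at 28 bases, and none of the GATA words. The window of Hbb-bs, which is not printed, did hold 1 GATA word, at 210 bases. It also held 1 CACCC at 90 bases, 1 CCAAT at 76 bases and an ATA box at 29 bases. The Alas2 window held 1 GATA word at 86 bases and 3 adjacent CACCC words at 40, 35 and 30 bases, all on the minus strand. Its only TATAAG lay 207 bases before the start. Over all 32851 promoter windows of that length, 26.5% held a GATA word, 52.0% CACCC, 33.9% CCAAT, 11.2% an ATA box, and 11.8% both a GATA word and CACCC. These matches describe letters and not binding, which was not measured.

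The level of a gene is log2 of its background-subtracted spot signal minus the array's 75th percentile, so a level of 0 is the 75th percentile of the array and a step of 1 is a doubling. Levels of different genes come from different probes and are not set against each other. Hba-a1 was at 7.73 and 8.37 in the SAMR1 mice 1 and 4 at 10 weeks, at 1.68 and 3.69 in the SAMR1 mice 6 and 12 at 50 weeks, at 3.70 and 6.11 in the SAMP1 mice 4 and 5 at 10 weeks, and at 8.22 and 5.80 in the SAMP1 mice 1 and 4 at 50 weeks. The young SAMR1 mice were both high, the old SAMR1 mice both low, and both SAMP1 groups held 1 high and 1 lower mouse. From the lowest to the highest array the Hba-a1 signal differed 103.5-fold. The Hba-a1 and Hba-a2 probes carry 10 spots each per array, and the SD among the spots of 1 array was 0.0229 to 0.0717 on the log2 scale for the brighter Hba-a1 probe and the Hba-a2 probe, and 0.0182 to 0.0763 for the second Hba-a1 probe. This SD covers spots of 1 array and leaves out differences between mice. The second Hba-a1 probe ran over 6.21 log2 units, against 6.69 for the first and 6.70 for the Hba-a2 probe.

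Hbb-bt, a beta globin gene with a probe listed for it alone, was at 5.28 and 5.64 in young SAMR1 mice, at -0.72 and 1.34 in old SAMR1 mice, at 1.61 and 3.95 in young SAMP1 mice and at 5.76 and 3.61 in old SAMP1 mice. Its order over the arrays was that of Hba-a1 except at the top, where the old SAMP1 mouse 1 lay above both young SAMR1 mice. Hbb-b2 ranged from -1.33 in the old SAMR1 mouse 6 to 5.04 in the old SAMP1 mouse 1, a range of 6.37. Hbb-b1 ranged from -2.73 to 3.08, a range of 5.81, which puts it just under the 6 units that the choice of members used.

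Alas2 was at 0.55 and 1.22 in young SAMR1 mice, at -5.30 and -3.33 in old SAMR1 mice, at -3.13 and -0.85 in young SAMP1 mice and at 1.26 and -1.21 in old SAMP1 mice. Its probe was well above background on 7 of the 8 arrays. On the array of the old SAMR1 mouse 6 it was not well above background, with a signal of 3.37 intensity units and a spot error of 32.4% as the scanner software gives it, so that level is only a bound. Against the lowest signal called well above background on that array, Alas2 in the old SAMP1 mouse 1 was at least 71.9-fold higher. Among the 5 globin genes the software error was 10% to 11.2% of the signal. No member spot was saturated.

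**Figure D1:**
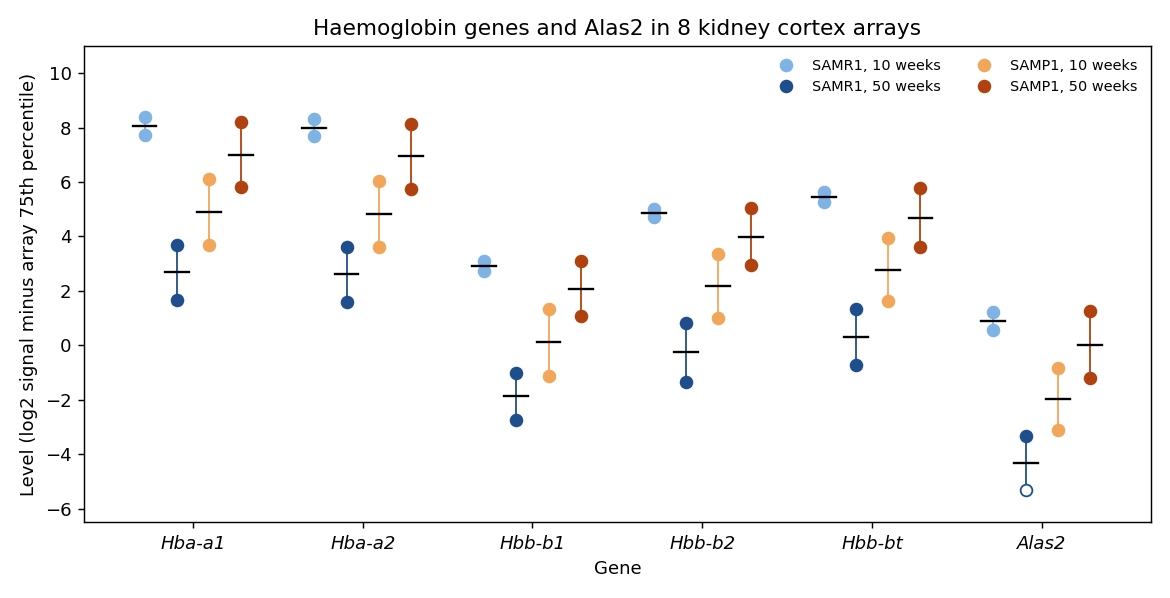
Level of each of the 6 genes (log2 signal minus the array's 75th percentile) in the 4 groups, with 1 dot per mouse, a black bar at the mean of the 2 mice and a line joining them; the open dot is an Alas2 value not well above background. In every gene the young SAMR1 mice are close together near the top, the old SAMR1 mouse 6 is lowest, and the 2 SAMP1 groups overlap; the old SAMR1 mouse 12 is next lowest except in Hbb-b1, where the young SAMP1 mouse 4 lies below it.

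The 6 genes rose and fell together. Over the 8 arrays the 15 pairs of genes had a Pearson r between 0.9967 and 0.99999, given with no p because the genes were picked for this spread, and 1 principal component held 99.8% of their variance. The points share array, RNA and scaling. The closest pair were Hba-a1 and Hba-a2, whose probes share 59 bases and whose difference ran over only 0.0401 log2 units. A mean of the 5 globin genes is used from here on as the globin level of an array, with Alas2 kept apart. A step of 1 log2 unit in the mean of the other globin genes went with a step of 1.05 in Hba-a1 and Hba-a2, 0.918 in Hbb-b1, 0.983 in Hbb-b2 and 0.998 in Hbb-bt. For Alas2, over the 7 arrays where its probe was well above background, the step was 1.016 per unit of the globin level, and the difference between Alas2 and the globin level stayed within 0.291 log2 units.

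The globin level was 6.08 in the young SAMR1 mouse 4, 6.05 in the old SAMP1 mouse 1, 5.63 in the young SAMR1 mouse 1, 4.16 in the young SAMP1 mouse 5, 3.84 in the old SAMP1 mouse 4, 1.76 in the young SAMP1 mouse 4, 1.69 in the old SAMR1 mouse 12 and -0.30 in the old SAMR1 mouse 6. The range was 6.38 log2 units, an 83.5-fold difference in signal. Arrays of different groups lay side by side in this order: the young SAMR1 mouse 4 and the old SAMP1 mouse 1 were nearly equal, as were the young SAMP1 mouse 4 and the old SAMR1 mouse 12. The member probes took 0.00345% of the summed signal of the array with the lowest globin level and 0.326% of that with the highest. Leaving the members out moved the array's 75th percentile by at most -0.0018 log2 units.

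The beta probes ran a little less far than the alpha probes. The mean beta level minus the mean alpha level was -3.48 and -3.76 in young SAMR1 mice, -3.23 and -3.27 in old SAMR1 mice, -3.19 and -3.16 in young SAMP1 mice, and -3.55 and -3.22 in old SAMP1 mice. The absolute size of this gap reflects the probes. Its change between arrays was 0.600 log2 units at most, and the 3 arrays with the widest gap were the 3 with the highest globin level. By group, it was -3.62 ± 0.199 (SD, n = 2) in young SAMR1, -3.25 ± 0.0257 in old SAMR1, -3.18 ± 0.0254 in young SAMP1 and -3.39 ± 0.232 in old SAMP1. Because alpha signal reached 48441 intensity units with no saturation mark, whether the response of the probes bends at the top was not tested.

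**Figure D2:**
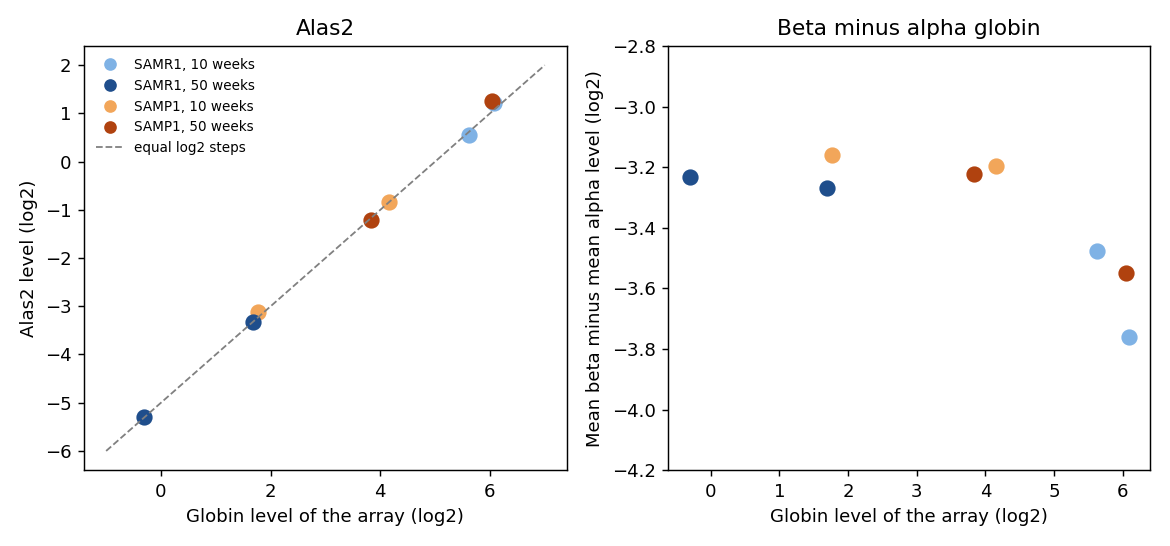
Left, Alas2 level against the globin level of the same array (both log2, 1 dot per mouse), with a dashed line of slope 1 through the median offset. Right, mean beta minus mean alpha level against the globin level. Alas2 lies near the line on the 7 arrays where it was well above background (the lowest point is only a bound), and the beta minus alpha gap is widest on the 3 arrays with the highest globin level.

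By group, the globin level was 5.86 ± 0.322 (SD, n = 2) in young SAMR1, 0.693 ± 1.41 in old SAMR1, 2.96 ± 1.70 in young SAMP1 and 4.94 ± 1.56 in old SAMP1 mice. The 2 mice of a group differed 1.37-fold in young SAMR1, 3.96-fold in old SAMR1, 5.27-fold in young SAMP1 and 4.63-fold in old SAMP1. The order of the group means was young SAMR1, old SAMP1, young SAMP1, old SAMR1. Young SAMR1 and old SAMP1 overlapped, as did old SAMP1 and young SAMP1, while the higher old SAMR1 value, 1.69, lay just below the lower young SAMP1 value, 1.76.

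With age, the mean globin level was lower in SAMR1 and higher in SAMP1, the latter with overlap between the ages and not within slide row 1. In SAMR1 it was lower at 50 weeks by a difference of -5.16 log2 units, 35.8-fold, and the groups did not overlap for any of the 6 members, with differences from -5.39 in Hba-a2 to -4.77 in Hbb-b1. Over all 22646 genes, 20.8% were lower without overlap in the same comparison. In SAMP1 the old mice had a higher mean by 1.98 log2 units, 3.95-fold, but all 6 members overlapped between the ages, with differences of 1.81 to 2.11. Over all genes, 20% were higher and 28.2% lower without overlap in SAMP1. The members were chosen on their spread over these arrays, so nothing is read from these counts.

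Between the strains, the sign turned with age. At 10 weeks the SAMP1 mean was lower by a difference of -2.89 log2 units, 7.43-fold, and all 6 members were lower without overlap, with differences from -3.17 to -2.67. The background for lower without overlap was 24.1% of all genes. At 50 weeks the SAMP1 mean was higher by 4.25 log2 units, 19.0-fold, and all 6 were higher without overlap, with differences from 3.96 in Hbb-b1 to 4.37 in Hbb-bt, beside 20.3% of all genes. The age difference in SAMP1 minus that in SAMR1 was 7.14 log2 units. The 4 comparisons share arrays, so these values are not independent of each other.

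The arrays lay on 1 slide. Each of its 2 rows held 1 array of every group. The 10-week arrays filled columns 1 and 2 and the 50-week arrays columns 3 and 4, and so the effects of age and of the column cannot be told apart. Within row 1 the age difference of the globin level in SAMP1 was -0.32, and within row 2 it was 4.29, so its sign rests on which mice are paired. The strain difference at 10 weeks was -1.47 in row 1 and -4.32 in row 2.

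A range above 6 log2 units was rare. It was found in 78 of 22646 genes, 0.344%, of which 5 were members. The other 73 did not follow the globin genes: their highest r with the globin level was 0.751 and their median r was -0.269. Of these, 65 were not well above background on at least 1 array. They include Jchain, which joins the chains of polymeric antibodies, with a range of 7.95 and an r of -0.271, and C1s1, a complement protease, with a range of 7.13 and an r of 0.720. The genes just outside the threshold included Cd8a, a marker of cytotoxic T cells, at 5.95. Over all genes tested the median range was 0.535.

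Of the other red-cell genes that could be tested, none followed the globin level at an r above 0.8. The list read for this held 40 genes of membrane proteins, regulators and enzymes. Of these, 27 were tested and 13 were not well above background on both arrays of any group. The 13 hold many of the defining genes, among them Epb42, the Rh proteins (Rhag, Rhd), Kel, the alpha globin chaperone Ahsp, the regulators Gata1 and Nfe2, Trim10, Trim58, Cldn13 and Tfr2. Over the 27 the median r was -0.073, beside a median of 0.004 over all genes, of which 0.994% lay above 0.8. Slc4a1, the band 3 anion exchanger of red cells that acid-secreting kidney cells also make, was named after its values were seen. It was at 2.06 and 2.03 in young SAMR1, 2.23 and 2.33 in old SAMR1, 2.59 and 2.41 in young SAMP1 and 2.44 and 2.57 in old SAMP1 mice. Its whole range was 0.562 log2 units, and the mice with the highest globin level were not its highest. The 4 genes of the list with the largest r in size were Ube2l6 (0.734), Bnip3l (0.674), Bpgm, which makes the red-cell effector of haemoglobin (0.586), and the adducin Add2 (-0.581). Both old SAMR1 mice lay farthest from the median globin level. Over the 6 arrays left without them, r was 0.369 for Ube2l6, 0.252 for Bnip3l, -0.263 for Bpgm and -0.420 for Add2. Other genes of the list, named after their values were seen, had an r that grew in size. Slc25a37 went from 0.387 to 0.755, Lmo2 from 0.079 to -0.955 and Slc4a1 from -0.300 to -0.736, so r moved both ways. The summed level of the 27 genes ran over 0.138 log2 units in all, from 7.52 to 7.58 in young SAMR1, 7.57 to 7.60 in old SAMR1, 7.53 to 7.55 in young SAMP1 and 7.63 to 7.66 in old SAMP1. Bright genes weigh most in such a sum, here and in the lists below. A change in dimmer genes such as Slc4a1 would show little in it.

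One gene of this list passed the test of a group difference. Tests here are limma's over all 22646 genes with Benjamini-Hochberg adjusted p-values, and of all genes 1.06% were called between the ages in SAMP1, 0.958% between the ages in SAMR1, 3.38% for strain at 10 weeks and 5.5% for strain at 50 weeks, while 0.00442% were called for the age by strain difference. Leaving out 1 mouse lowered the counts behind these shares from 241 to as few as 54 for age in SAMP1 (without the young SAMP1 mouse 4), from 217 to 44 for age in SAMR1 (without the old SAMR1 mouse 12), from 765 to 312 for strain at 10 weeks (without the young SAMP1 mouse 4) and from 1245 to 586 for strain at 50 weeks (without the old SAMP1 mouse 4). Klf1, a master regulator of globin genes in red-cell precursors, was at -3.82 and -4.19 in young SAMR1, -3.31 and -4.14 in old SAMR1, -1.31 and -1.04 in young SAMP1 and -1.26 and -1.58 in old SAMP1 mice. Both SAMP1 groups lay above both SAMR1 groups, by 2.83 ± 0.292 (SE, limma adjusted p = 0.00501) at 10 weeks and by 2.31 ± 0.292 (limma adjusted p = 0.00846) at 50 weeks. With normexp background correction, which raises dim signals by an offset, the Klf1 differences were 0.940 and 0.662, both still called. Its r with the globin level was 0.058. None of the other tested genes of the list was called in any of the 5 comparisons.

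Other globin genes gave little signal. Of 9 embryonic and non-red-cell globin genes, 7 were not tested, among them the embryonic Hbb-y and Hba-x and myoglobin (Mb). Hbb-bh1, an embryonic beta globin, was well above background on 2 arrays, those of the young SAMR1 mice, at -4.82 and -4.70. Cygb, cytoglobin of fibroblast-like cells, ran over 0.72 log2 units with an r of 0.161. Neither gene was called in a comparison.

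Haem synthesis genes other than Alas2 varied little between arrays, with a median range of 0.371 log2 units. All 10 genes of the list were tested and 0 were called in any comparison. Alas1, the form of Alas2's enzyme used in other tissues, was between 4.99 and 5.68 on all 8 arrays, with an r of 0.136. Of the later enzymes of the pathway, Alad, Urod, Cpox, Ppox and Fech had ranges of 0.171 to 0.690. Uros, which closes the porphyrin ring, had the highest r, 0.797, on a range of 0.383, and its r was 0.798 over 6 arrays. Slc25a38, which carries glycine for haem synthesis into mitochondria, had the lowest, -0.660.

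Of 20 genes for haem clearance and iron handling, 19 were tested, the one left out being the hormone hepcidin (Hamp), and 0 were called. Hmox1, the enzyme that opens haem, was at 2.63 and 2.73 in young SAMR1 and 2.60 and 3.05 in old SAMR1 mice, with an r of -0.035. Both ferritin chains were flat, Fth1 over 0.155 and Ftl1 over 0.324 log2 units. Tfrc, the transferrin receptor, which red-cell precursors make in quantity, had the highest r of this list, 0.724, but -0.041 over the 6 arrays without the old SAMR1 mice. Over the same 6 arrays the r of Lrp1 went from -0.173 to -0.871 and that of Slc48a1 from 0.141 to -0.795. Both were named after their values were seen.

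Kidney is the adult source of erythropoietin, the hormone that drives red-cell production. The Epo probe was too dim on all 8 arrays and was not tested. Of 14 genes for Epo and oxygen sensing, 13 were tested. Car9, a carbonic anhydrase induced by low oxygen, was called in 3 comparisons. It was at -0.26 and -0.34 in young SAMR1, 0.54 and 0.28 in old SAMR1, 0.74 and 0.74 in young SAMP1, and 1.69 and 1.69 in old SAMP1 mice. It was higher with age in SAMP1 by 0.952 ± 0.112 (SE, limma adjusted p = 0.0188), and higher in SAMP1 by 1.04 at 10 weeks (limma adjusted p = 0.00617) and by 1.28 at 50 weeks (limma adjusted p = 0.00212). The age difference in SAMR1 was 0.711 (limma adjusted p = 0.0536). The SAMP1 age call was lost without any 1 of the 4 SAMP1 mice (limma adjusted p = 0.0834 to 0.133), and the call at 10 weeks without either young SAMP1 mouse or the young SAMR1 mouse 4 (0.0507 to 0.0533). Its order over the arrays was not that of the globins, with an r of -0.039. Slc2a1, the glucose transporter of red cells and many tissues, had the highest r of the list, 0.871 over 8 arrays and 0.655 over 6, on a range of 0.556.

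Platelets travel with red cells in blood. Of 16 platelet genes, 11 were tested, and Gp9, Gp1ba, Gp5, Tubb1 and Selp were too dim. Ppbp, a chemokine stored in platelets, was at -4.43 and -4.33 in young SAMR1, -7.21 and -7.21 in old SAMR1, -5.82 and -5.25 in young SAMP1, and -2.62 and -3.58 in old SAMP1 mice. It was well above background on 4 arrays, those of young SAMR1 and old SAMP1 mice, the 2 groups with the highest mean globin level. It was tested only because of these groups, where it was high. Each called comparison sets 1 of them against values that are only bounds, so nothing about the globin level is read from these calls. It was higher with age in SAMP1, at least 4.00-fold (measured difference 2.44, limma adjusted p = 0.0293). It was lower with age in SAMR1, at least 1.44-fold (measured difference -2.83, limma adjusted p = 0.0183). At 50 weeks it was at least 3.50-fold higher in SAMP1 (measured difference 4.12, limma adjusted p = 0.00145). The age by strain difference of Ppbp was 5.27 ± 0.461 (SE) and missed the threshold (limma adjusted p = 0.0667). Each bound sets the bright group against the lowest signal called well above background on the dim arrays. Both age calls of Ppbp were lost with normexp background correction (limma adjusted p = 0.0790 in SAMP1 and 0.773 in SAMR1), with no filter on dim probes (0.0789 and 0.0580), with the slide row as a block (0.0724 and 0.0525) and with the globin level in the fit (0.0898 and 0.745). Leaving out any 1 of the 4 SAMR1 mice gave a limma adjusted p of 0.0658 to 0.0960 for the SAMP1 age call and 0.100 to 0.143 for the SAMR1 one. Leaving out a young SAMP1 mouse, 4 or 5, gave 0.161 or 0.0699 for the SAMP1 age call. The call at 50 weeks was lost only with the globin level in the fit (limma adjusted p = 0.0687), among the 16 alternatives in which Ppbp was tested, though with normexp correction the difference was 0.381. The age differences were then 0.424 in SAMP1 and -0.046 in SAMR1.

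Ppbp had an r of 0.855 with the globin level over 8 arrays and 0.667 over the 6 without the old SAMR1 mice. In old SAMR1 and young SAMP1 mice its values are only bounds, so nothing is read from this r. The other platelet genes followed other patterns. Pf4, a second platelet chemokine, which tissue macrophages also make, was at -0.56 and -0.55 in young SAMR1, -1.29 and -0.97 in old SAMR1, 0.28 and 0.41 in young SAMP1 and -0.15 and 0.54 in old SAMP1 mice, and was called only for strain at 50 weeks (1.32 ± 0.229, limma adjusted p = 0.0256). The Pf4 call was lost without any 1 mouse other than the old SAMP1 mouse 1 (limma adjusted p = 0.0529 to 0.123), with the slide row as a block (0.0516) and with no filter on dim probes (0.0665). F13a1, also made by macrophages, was higher in SAMP1 at 50 weeks by 3.13 (limma adjusted p = 0.00708), with a difference of 2.89 without the old SAMR1 mouse 6 (limma adjusted p = 0.0529). Gp6 is a collagen receptor, with an r of 0.019 over 8 arrays and 0.839 over the 6 without the old SAMR1 mice. It was well above background on every SAMR1 array and on no SAMP1 array. It was tested only because of the group where it was high. It was lower in SAMP1, at least 5.04-fold at 10 weeks (limma adjusted p = 0.00459) and at least 4.29-fold at 50 weeks (limma adjusted p = 0.0155). The latter call was lost without either old SAMR1 mouse or the old SAMP1 mouse 4 (0.0510 to 0.0860). With normexp correction the measured differences of Gp6 were -0.428 and -0.364 log2 units, against -3.81 and -2.57, and that of F13a1 at 50 weeks was 0.685, all 3 still called. In all, 1 of 11 platelet genes was called higher for age in SAMP1, 1 lower for age in SAMR1, 1 lower for strain at 10 weeks, and 3 higher and 1 lower for strain at 50 weeks. Over all genes the shares called in these comparisons, in either direction, were 1.06%, 0.958%, 3.38% and 5.5%. The list's median r was 0.246, and its summed level was 0.90 to 0.93 in young SAMR1, 0.72 to 0.75 in old SAMR1, 1.24 to 1.31 in young SAMP1 and 1.32 to 1.59 in old SAMP1. The part of platelets in the globin pattern was not tested.

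Of 17 neutrophil and monocyte genes, 12 were tested, and the granule genes Ngp, Ltf, Retnlg and Mmp9 and the receptor Cxcr2 were too dim. S100a8, a subunit of the neutrophil protein calprotectin, was at -2.93 and -1.95 in young SAMR1, -6.09 and -3.96 in old SAMR1, -2.61 and -3.52 in young SAMP1, and -2.86 and -1.77 in old SAMP1 mice. The old SAMR1 mice were lowest for it, as for the globins, but over the other 6 arrays its r was 0.009, against 0.720 over all 8. Its partner S100a9 had an r of 0.621 over 8 arrays and -0.0005 over 6. Neither S100a8 nor S100a9 was called. In the same list, r over 6 arrays also grew in size. That of Ccr2 went from -0.078 to 0.956 and that of Chil3 from 0.298 to -0.912, both named after their values were seen. The called genes of the list were Ly6g, Ly6c2 and Plac8, each higher in SAMP1 at both ages, by 2.42 (limma adjusted p = 0.00103), 0.908 and 0.808 at 10 weeks, with r of 0.076, 0.316 and 0.309. With normexp correction the Ly6g difference at 10 weeks was 1.51. At 10 weeks the call of Ly6c2 was lost without any 1 of the 4 young mice (limma adjusted p = 0.0502 to 0.131) and with the slide row as a block (0.05003), and that of Plac8 without the SAMR1 mouse 1 (0.0543) or the SAMP1 mouse 5 (0.0659). The summed level of the list was 6.95 to 7.15 in SAMR1 and 7.58 to 7.76 in SAMP1, and its part in the globin pattern was not tested. Bright genes weigh most in this sum. The mean of Ly6c2 alone was 5.97 in young SAMR1, 5.59 in old SAMR1, 6.88 in young SAMP1 and 6.97 in old SAMP1 mice.

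Several lymphocyte genes differed between groups. Of 9 tested B and plasma cell genes, 6 were called higher with age in SAMP1 and 2 in SAMR1. Over all genes 1.06% and 0.958% were called, in either direction. Ms4a1 and Pou2af1 passed the filter only through old mice and were well above background on no young SAMP1 array. Their SAMP1 differences therefore rest on bounds. Jchain was higher by 5.94 (limma adjusted p = 0.0159) and 5.10 (limma adjusted p = 0.0263), and the list's median r was 0.100. The SAMP1 call of Jchain was lost without either old SAMR1 mouse, either old SAMP1 mouse or the young SAMP1 mouse 4 (limma adjusted p = 0.0576 to 0.0763), and the SAMR1 call without either old SAMR1 mouse or the young SAMR1 mouse 1 (0.0847 to 0.166), with the slide row as a block (0.0713) and with no filter on dim probes (0.0756). With normexp correction the Jchain differences were 4.08 and 4.33. Of 11 T cell genes, 2 were called higher in SAMP1 at 10 weeks and 5 at 50 weeks, with a median r of 0.218. Over all genes 3.38% and 5.5% were called, in either direction. Cd8a, called at both ages, was well above background on no SAMR1 array. It was tested only because of SAMP1, where it was high. Of 12 endothelial genes 0 were called. Pecam1, the adhesion protein of the vessel wall, had the lowest r of that list, -0.677, and -0.872 over 6 arrays. Of 16 tested immediate early genes, Dusp1, a stress-induced phosphatase, had the highest r, 0.819, and was called in no comparison, while 2 other genes of that list were called higher with age in SAMP1, 1 higher in SAMP1 at 10 weeks and 3 at 50 weeks. The kidney markers were present in every group. All 13 cortex genes, among them the proximal tubule transporters Slc34a1 and Slc5a2 and the podocyte gene Nphs1, were tested, their summed level ran over only 0.172 log2 units, and their median r was 0.034. Of these, 1 was called, the transporter Slc22a8, higher in SAMP1 at 10 weeks by 0.564 (limma adjusted p = 0.0278). That call was lost with no filter on dim probes (limma adjusted p = 0.0531), with quantile normalization (0.0611), with the globin level in the fit (0.309), without any 1 of the 4 young mice (0.117 to 0.177) and without either old SAMP1 mouse (0.0613).

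**Figure D3:**
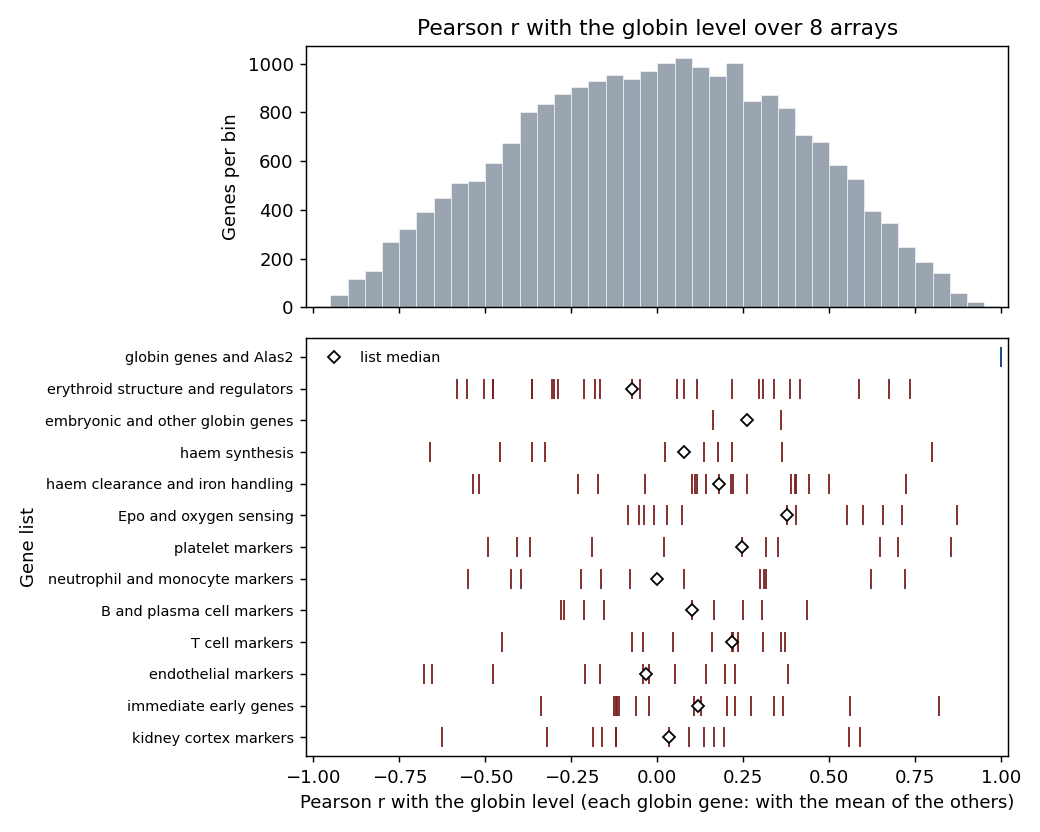
Top, number of genes per bin of Pearson r with the globin level over the 8 arrays, for the genes tested other than the members. Bottom, r of each tested gene of 12 lists (red marks) with the list median (diamonds), and of the 6 members (blue, each globin gene against the mean of the others). The members sit at 0.998 and above, while 3 of the listed genes, Slc2a1, Ppbp and Dusp1, lie above 0.8.

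Genes whose pattern was most like the globins were named by Pearson r over the 8 arrays, with no p and nothing read about shared function or control. The highest were Spty2d1, a histone chaperone, with an r of 0.979 on a range of 0.299 log2 units, and Pgm2, a sugar phosphate mutase, with 0.969 on a range of 0.612. Next came Gk, glycerol kinase, at 0.962, Ube2v2, a ubiquitin-conjugating enzyme variant, at 0.961, G3bp2, a stress granule protein, at 0.950, Zdhhc22, of the palmitoyl transferase family, at 0.946, and Pdcl3 at 0.944. An unnamed transcript probe on chromosome 11 had 0.939, Lyrm1 0.928 and Polr2k, a subunit of RNA polymerases, 0.922. Of these 10, Zdhhc22 ran farthest, over 2.05 log2 units: it was at -2.91 and -2.57 in young SAMR1, -4.60 and -4.18 in old SAMR1, -4.62 and -3.60 in young SAMP1 and -2.76 and -3.95 in old SAMP1 mice. All others ran over 0.612 or less, against 6.38 for the globin level. In all, 225 genes outside the members had an r above 0.8 and 323 had one below -0.8, so high values are found in both directions. The rank of these genes depends on the probe and the background: with the mean of all kept probes r was 0.488 for Gk and 0.417 for Ube2v2, and with normexp background correction 0.641 for Pgm2 and 0.791 for Zdhhc22.

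A further test asked which genes outside the members follow the globin level between the 2 mice of a group; that level is made of the values that chose the members. It was limma with a term per group and 1 slope on the globin level, over 22640 genes without the members. By adjusted p, 0% of genes were called, 0 of 22640. At an unadjusted p under 0.05 there were 937, 4.14%. The smallest unadjusted p was 7.1e-05, with an adjusted p of 0.984. With 8 arrays and 4 groups the test had 3 residual degrees of freedom, so slopes small beside the spread between mice could not be seen. An unadjusted p under 0.05 was found for 3 of 11 platelet genes, 2 of 12 neutrophil and monocyte genes, 2 of 11 T cell genes, 1 of 9 B and plasma cell genes, 1 of 16 immediate early genes, 1 of 13 kidney genes and 1 of 2 other globin genes. It was found for none of the 27 red-cell genes nor in the haem synthesis, haem clearance, oxygen sensing and endothelial lists. Hbb-bh1 passed the filter on dim probes only through young SAMR1 mice, and Ppbp only through young SAMR1 and old SAMP1 mice. These groups had the highest mean globin level, so nothing is read from the slopes of these genes. Ppbp had a slope of 0.239 ± 0.0797 (SE, limma adjusted p = 0.984), in log2 units per log2 unit of globin. The slope of Slc4a1 was -0.0359 ± 0.0405.

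**Figure D4:**
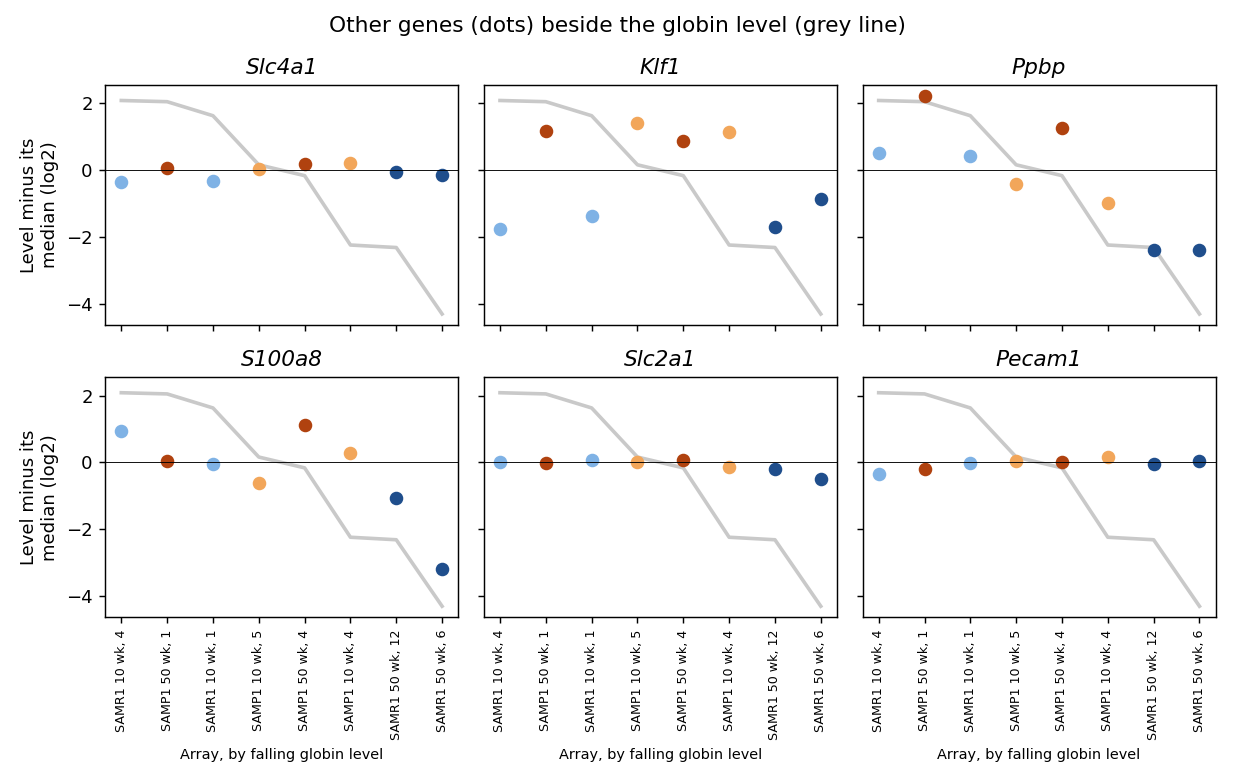
Level minus its median over 8 arrays (log2) for 6 genes outside the members, with 1 dot per mouse coloured as in the plot of the members by group and the arrays ordered by falling globin level; the grey line is the globin level minus its median. Slc4a1, Slc2a1 and Pecam1 stay flat, Klf1 separates SAMP1 from SAMR1, and Ppbp and S100a8 are lowest in the old SAMR1 mice.

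Putting the globin level of the array into the group comparison changed how many genes were called. Over the 5 comparisons together 2469 gene calls were made without it and 340 with it. In the lists above, 43 calls were made without it and 6 with it. These 6 were the strain differences of Ly6g and of Gp6 at both ages, that of Cd8a at 10 weeks and the age difference of Pou2af1, a B cell coactivator, in SAMP1. For Gp6, Cd8a and Pou2af1 no array of the lower group was well above background. Those groups were SAMP1 for Gp6, young SAMR1 for Cd8a and young SAMP1 for Pou2af1, and their values are only bounds. The fit with the globin level has 3 residual degrees of freedom in place of 4, and the level differs between the groups, so the part of either in the lower count was not tested. With the globin level in the fit, the Klf1 differences were 2.73 at 10 weeks (limma adjusted p = 0.103) and 2.44 at 50 weeks (limma adjusted p = 0.259), against 2.83 and 2.31 without it. Those of Car9 were 1.03 for age in SAMP1, 0.930 for strain at 10 weeks and 1.44 at 50 weeks (limma adjusted p = 0.0941 to 0.125), against 0.952, 1.04 and 1.28. For Klf1 and Car9 the calls were lost while the differences stayed about as large. Other strain differences moved more when the globin level was put into the fit. That of Gp6 went from -3.81 to -2.95 at 10 weeks and from -2.57 to -3.83 at 50 weeks. That of Ly6g went from 2.42 to 2.05 at 10 weeks and from 2.29 to 2.84 at 50 weeks.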

How the data were processed

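The submitters' processing notes name Agilent Feature Extraction 12.0.3.1, whose scanner output was deposited as spot intensities of 8 one-colour arrays. The processed intensity had its background subtracted and trends within the array removed, with no scaling across arrays, per the file headers. Raw mean intensity and local background intensity, and flags for outliers, saturation and signal over background, were used as deposited. A log2 value table of the same arrays was deposited too. Its making is not given in the sources used here. Set against the scanner values centred per gene, each of its columns had a correlation of 0.9991 to 0.9994 and a median of -0.048 to 0.0591, so scale, direction and centring were settled, and it served as an alternative only.

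Each array held 59305 spots for 56605 probes that were not controls. Of these spots, 102 to 161 were outliers and left out, 12 of them on member probes over all arrays, and 0 were saturated. From 61.4% to 64.4% were well above background. The number of arrays limits the precision. Spots of a probe were averaged as log2 processed intensity, and each array was scaled by subtracting its 75th percentile (132.6 to 165.0 intensity units). For each gene the probe with the highest mean stood for it, if both arrays of 1 or more groups had it well above background. This left 22646 genes. By accession, 35405 probes matched a table of gene names of GRCm38.p6 and 1 was renamed. Exon and UTR positions on mm9, and strain differences in sequence under the probes, were not analysed here.

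Differences were tested 2-sided with limma 3.58.1 in R 4.3.3, with a coefficient for each of the 4 groups, 4 residual degrees of freedom, a prior of 2.36 and Benjamini-Hochberg adjustment over all genes per comparison, at a threshold of 0.05. The fits were tested on simulated data. The members were given no test. With 2 mice per group, each p-value sets a difference against the gene's spread between these samples. That spread is pooled over the 4 groups and drawn toward the spread of all genes. Named were all members, the 10 other genes with the highest r with the globin level, and of each list the genes past a test and otherwise at most 4 with the largest r in size. The members and lists were chosen with earlier results of these data known, and no list is independent evidence. Alternatives were normexp correction (offset 50), quantile normalization, the percentile over 31543 probes detected on all arrays, the authors' value table, other filters and probe rules, leaving out each mouse, the slide row as a block or within rows, and the globin level as a covariate.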

Additional observations from a re-analysis of the deposited data

How the results depend on the processing

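The range of the globin level over the arrays was 5.62 to 6.70 log2 units under the alternatives of scaling, background, filter, probe and single gene, against 6.38. Within slide row 2 it was 4.40, and leaving out 1 mouse at a time gave 4.40 to 6.38, the lowest without the old SAMR1 mouse 6. Within slide row 1 the age difference in SAMP1 turned to -0.324, and within row 2 it was 4.29. The strain difference at 10 weeks was -1.47 and -4.32 within the rows, and the age by strain difference 5.60 and 8.68. Leaving out 1 mouse gave 0.782 to 3.18 for age in SAMP1, -6.16 to -4.17 for age in SAMR1, -4.09 to -1.70 for strain at 10 weeks, 3.14 to 5.35 for strain at 50 weeks and 5.94 to 8.34 for age by strain, with no sign turned. The range of Alas2 was 2.66 and that of Hbb-b1 3.98 with normexp correction, which adds an offset of 50 to signals that reach down to 3.37. Over the 5 comparisons the 2469 gene calls became 340 with the globin level as a covariate and 1474 to 1838 without 1 mouse. The 43 calls of list genes became 6 and 22 to 37. By comparison, counts moved by over 1.5 times without either old SAMR1 mouse, either young SAMP1 mouse or the old SAMP1 mouse 4 for age in SAMP1 (54 to 148, from 241), without any SAMR1 mouse for age in SAMR1 (44 to 108, from 217), without any young mouse for strain at 10 weeks (312 to 376, from 765) and without any old mouse for strain at 50 weeks (586 to 816, from 1245). No filter on dim probes gave 147, 129 and 807 for age in SAMP1, age in SAMR1 and strain at 50 weeks, the strict filter 117 and 80 for the ages, and normexp 397 for age in SAMR1. With the globin level as a covariate the 4 counts were 53, 13, 182 and 92. Age by strain, 1 gene, ran from 0 to 17, the highest with normexp. The cause was not tested, beyond the fewer samples or degrees of freedom of these fits. The slope test called 0 genes under every alternative run, with 725 to 1346 at an unadjusted p under 0.05. By mouse number, no paired analysis was possible because the groups compared share fewer than 2 replicate numbers. By slide row, each row held 1 array of every group, and with the row as a block 1879 gene calls and 35 calls of list genes were made. Dim probes limit the value of Alas2 in the old SAMR1 mouse 6 and those of Ppbp in old SAMR1 and young SAMP1 mice.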
